A study of Mus musculus with 12 samples.

Results

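The 10 genes examined here encode scavenger receptors and proteins of lipid handling in macrophages, namely Msr1, Marco, Cd36, Scarb1, Olr1, Trem2, Lpl, Plin2, Fabp4 and Apoe. They were chosen by name, as the rows of the deposited count tables whose gene name is on this list, out of 18719 genes listed in at least 1 of 2 tables. The table of LPS-stimulated cells listed all 10 among its 17874 genes. The table of unstimulated cells listed 8 among 17544, without Cd36 and Olr1, and the same 8 were among the 16699 genes of both tables.

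Scavenger receptors are a loose family of surface proteins that bind modified lipoproteins, bacteria, dying cells and other polyanionic or lipid cargo, and in macrophages their unregulated uptake of oxidized lipoprotein is known for producing foam cells. MSR1 and MARCO are trimeric class A receptors, CD36 and SCARB1 are class B receptors for fatty acids and lipoproteins, OLR1 is a lectin-like receptor for oxidized low-density lipoprotein, and TREM2 is a lipid-binding receptor that signals through the adaptor TYROBP. Inside and around the cell, lipoprotein lipase (Lpl) frees fatty acids from triglyceride, FABP4 carries them, perilipin 2 (Plin2) coats the lipid droplets that store them, and apolipoprotein E (Apoe) carries cholesterol out.

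The cells were lines of J774A.1, a mouse macrophage tumor line, and RNA-seq of 12 libraries addressed how loss of the mitochondrial acetyl-CoA acetyltransferase ACAT1 changes gene expression at rest and after bacterial stimulation. WT lines carried the pSpCas9-2A-GFP vector without a guide RNA, and ACAT1 KO lines the same vector with a guide to exon 4 of Acat1. All lines had been transfected, sorted for GFP and grown out from wells seeded with a few cells, so a difference between genotypes was measured between 3 selected lines and 3 others. Unstimulated WT, unstimulated ACAT1 KO, LPS-treated WT and LPS-treated ACAT1 KO cells had 3 libraries each, and treatment was 100 ng/ml lipopolysaccharide (LPS), a ligand of TLR4, for 2 h. The study describes the replicates as different lines of each genotype, and p-values set a difference against the spread between libraries of a group. Tests of LPS and of the interaction did not pair libraries unless stated.

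Totals ranged from 56948593 to 167280149 counts per library. Acat1, the targeted gene, measured 108, 107 and 80.8 CPM (counts scaled to the normalized library total) in unstimulated WT and 28.9, 25.5 and 26.1 CPM in unstimulated ACAT1 KO cells, and 85.4, 95.4 and 65.0 against 19.9, 18.5 and 18.9 CPM after LPS, so that no KO library reached a WT library. All 8 macrophage markers were listed in both tables, with a summed level of 8144 to 12438 CPM per library, and none of 6 adipocyte markers was listed. Lists of 6 markers each for endothelial cells (2 or 3 listed), neutrophils (2 to 4), fibroblasts (1 to 3) and T or B cells (2) summed to at most 6.09, 7.66, 12.02 and 0.941 CPM. WT replicates 1 and 2 and ACAT1 KO replicate 2 without stimulation stood apart. Noncoding genes located within exons of an opposite-strand gene took 0.0165 to 0.0242% of their counts, the other 9 libraries had 0.00445% or less, and their totals were the lowest. This split was seen in the data and is not in the labels. Values without these 3 libraries are given where they change a call, and for some other values. In these bulk samples, fewer cells of a type and less RNA per cell cannot be told apart.

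The 250 bases upstream of the start site are shown for Marco, Plin2 and Trem2, because their transcripts changed with LPS in both genotypes, Marco and Plin2 upward and Trem2 downward. Sequences are from RefSeq on GRCm38.p6, read 5′ to 3′ on the strand of the gene, and 6 of the 10 genes had an entry. Capitals mark matches, on either strand, to GAGGAA (the core of the macrophage factor PU.1), TGANTCA (AP-1), AGGTCA (a nuclear receptor half-site) or the NF-kappa-B consensus.
Marco, chr1:120505025-120505274, minus strand: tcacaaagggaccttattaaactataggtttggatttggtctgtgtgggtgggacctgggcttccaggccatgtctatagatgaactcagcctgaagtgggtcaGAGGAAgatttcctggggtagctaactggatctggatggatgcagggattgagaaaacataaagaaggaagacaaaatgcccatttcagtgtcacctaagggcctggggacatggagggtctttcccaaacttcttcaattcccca
Plin2, chr4:86670060-86670309, minus strand: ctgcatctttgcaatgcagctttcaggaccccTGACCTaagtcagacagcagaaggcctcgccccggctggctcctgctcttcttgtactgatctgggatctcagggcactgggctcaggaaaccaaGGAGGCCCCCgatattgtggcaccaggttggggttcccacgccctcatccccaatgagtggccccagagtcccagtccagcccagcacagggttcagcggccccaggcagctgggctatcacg
Trem2, chr17:48346151-48346400, plus strand: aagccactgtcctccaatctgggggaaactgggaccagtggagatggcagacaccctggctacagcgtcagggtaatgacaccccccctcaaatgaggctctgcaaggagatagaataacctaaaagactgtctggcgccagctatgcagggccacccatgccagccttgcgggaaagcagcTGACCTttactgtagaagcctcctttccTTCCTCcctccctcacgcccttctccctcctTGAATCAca

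Marco held GAGGAA beginning 146 bases upstream of the start. In Plin2 the NF-kappa-B consensus lay 123 bases upstream and AGGTCA 218 bases upstream, both on the opposite strand. Trem2 had TGANTCA 9 bases upstream, matched on both strands (TGAATCA on the strand of the gene, TGATTCA on the other) since the pattern is symmetric, and, on the opposite strand, GAGGAA 40 and AGGTCA 68 bases upstream. Such matches are common. Within the 300 bases from 250 before to 50 after the start, 28.3% of 32851 promoters held GAGGAA, 16.3% AGGTCA, 8.46% the NF-kappa-B consensus and 7.81% TGANTCA. Plin2 also had the E-box CACGTG from 4 bases upstream into the gene, a motif in 7.15% of promoters. The interferon-stimulated response element, found in 3.44%, and the direct repeat DR1 of PPAR and RXR, found in 0.0396%, had no match in the 300 bases around the start of these 3 genes. A match describes the letters of the window and not a bound site.

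Abundance spanned several orders of magnitude. The genes together took 0.139 to 0.195% of the counts of a library, and Msr1 alone 63.1 to 71.0% of that share. Per kilobase of exon in the annotation, the mean level in unstimulated WT cells was 162 CPM per kb for Msr1, 53.6 for Trem2, 40.5 for Plin2, 7.49 for Scarb1, 5.16 for Apoe, 2.80 for Lpl, 0.569 for Marco and 0.334 for Fabp4. Neighbours in this order did not overlap across libraries, except Marco and Fabp4. In LPS-treated ACAT1 KO cells the order was Msr1 (205 CPM per kb), Plin2 (74.6), Trem2 (46.3), Marco (30.6), Scarb1 (6.16), Apoe (3.80), Lpl (2.87), Fabp4 (0.547), Cd36 (0.0162) and Olr1 (0.0160), with overlap only between the last 2. Per kilobase of the longest protein-coding transcript instead, Trem2 stayed above Plin2 after LPS, at 211 against 139 CPM per kb in KO cells, and Fabp4 stood above Marco without stimulation, at 1.67 against 0.569 CPM per kb in WT cells. On that scale the libraries of Msr1 and Trem2 overlapped in unstimulated WT cells (means of 282 and 244 CPM per kb), as did those of Apoe and Lpl. Per kilobase of the longest transcript of any type, Plin2 stood above Trem2 in unstimulated WT cells, at 75.4 against 55.4 CPM per kb.

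**Figure D1:**
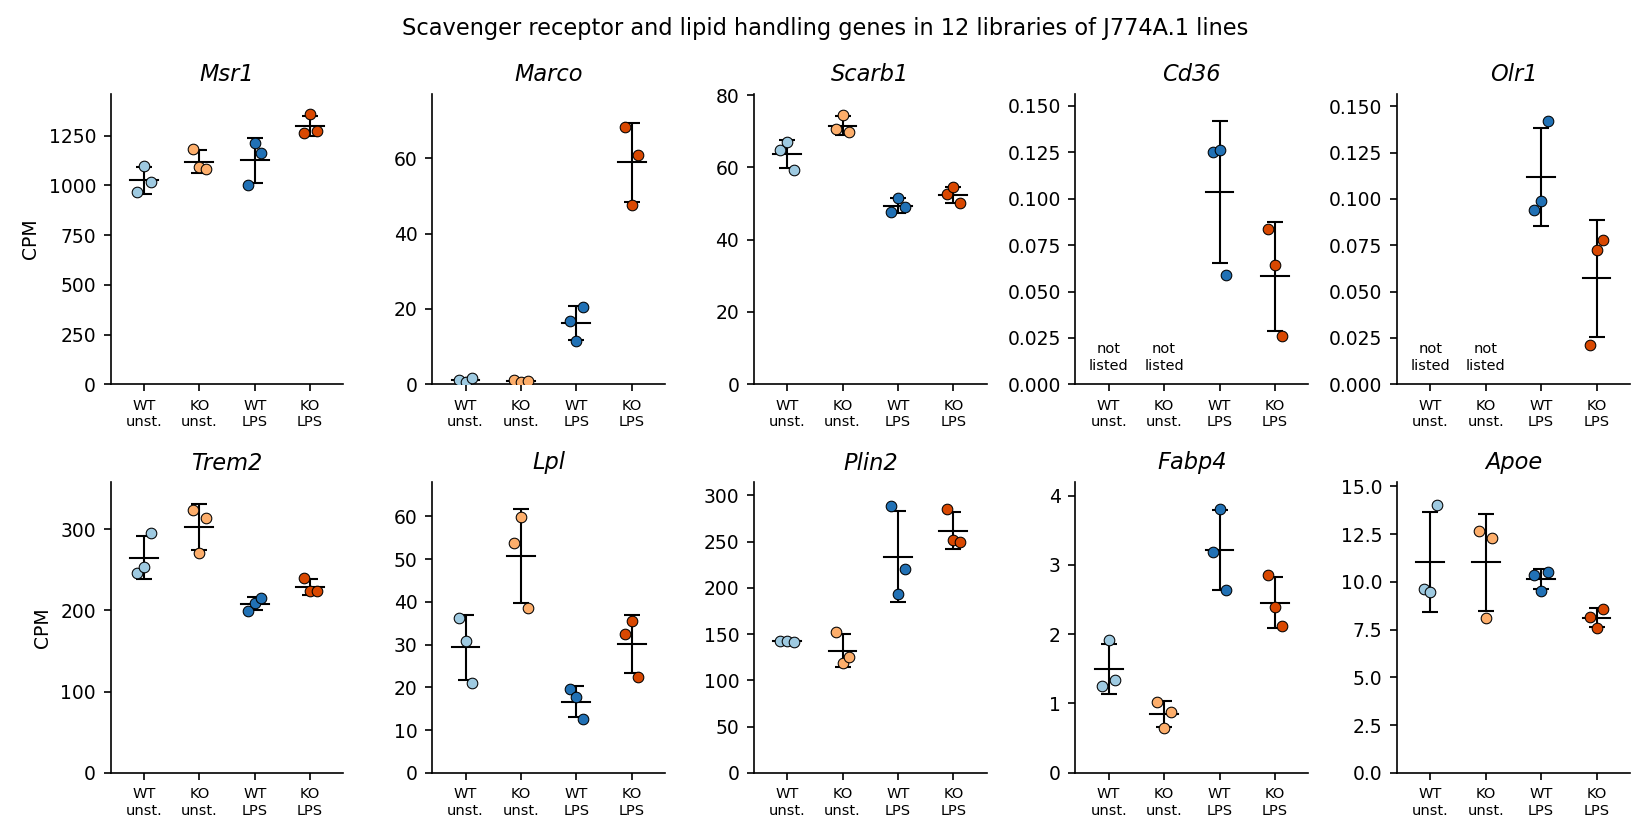
Level of each gene in CPM (y axis, from 0) in the 3 libraries of each group (x axis; unst., unstimulated), with points for libraries, a horizontal line for the mean and bars for the SD. Marco stands at 0.642 to 1.61 CPM without stimulation and at 11.5 to 68.4 CPM after LPS. Cd36 and Olr1 were not listed for unstimulated cells.

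LPS changed most of these genes, as it did most genes. Of the 8 genes in both tables, 6 passed an adjusted p of 0.05 in WT cells (quasi-likelihood test of edgeR, Benjamini-Hochberg adjustment over all genes), where 57.4% of 16535 genes tested passed. In ACAT1 KO cells 7 of 8 passed, against 60.7% of all genes. Marco, Plin2 and Fabp4 rose and Scarb1, Trem2 and Lpl fell in both genotypes, and Msr1 rose in KO cells. Of all genes 29.3% rose and 28% fell in WT cells, and 29.5% rose and 31.2% fell in KO cells. The median log2 change was 0.0056 over the 8 genes in WT and -0.094 in KO cells, beside medians of -0.018 and -0.026 over all genes. Under upper-quartile normalization the median of all genes moved by -0.208 in WT and -0.148 in KO cells, and the share of higher calls went from 51.1 to 35.2% and from 48.5 to 37.4%.

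Between genotypes, none of the 8 genes passed without stimulation, where 1.91% of 16440 genes did, and 2 of 9 passed after LPS, where 15.1% of 16483 genes did. Both of the latter, Marco and Lpl, were higher in ACAT1 KO cells, a direction taken by 5.93% of all genes. The count of 0 without stimulation became 3 at an unadjusted p under 0.05, a level that 19.7% of all genes passed, and was 1 with DESeq2 (Lpl) and 0 with limma-voom. After LPS 5 of 9 had an unadjusted p under 0.05, against 31.3% of all genes. The 2 calls after LPS became 1 without WT LPS replicate 2 or KO LPS replicate 1 or 2 and 3 without WT LPS replicate 1. The 2481 genes called in all after LPS also fell in number, to 1183 without WT LPS replicate 2 and to 1020, 867 and 1034 without KO LPS replicates 1, 2 and 3. The median log2 difference was 0.069 over the 8 genes without stimulation and 0.16 over the 9 after LPS, beside 0.0035 and -0.0041 over all genes. The libraries of the genotypes did not overlap for 3 of 8 genes without stimulation (2 higher, 1 lower in KO) and 6 of 9 after LPS (4 higher, 2 lower), against 25.8% and 37.6% of all genes.

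**Figure D2:**
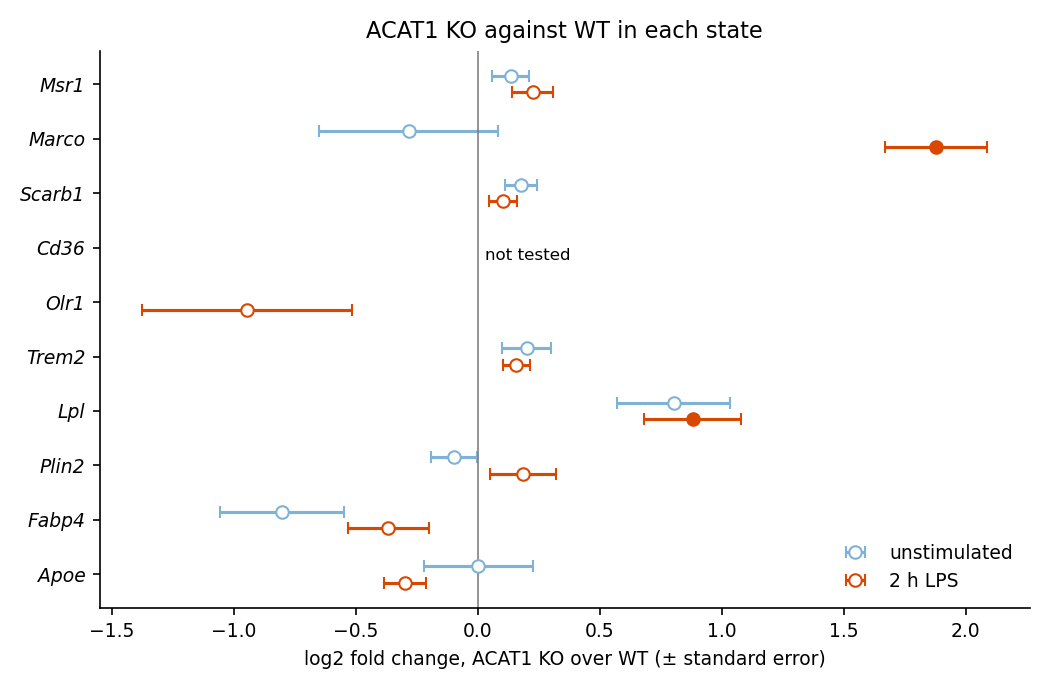
Log2 fold change of ACAT1 KO over WT cells (x axis) for each gene (y axis), with bars for the standard error and filled points for an adjusted p under 0.05. The filled points are Marco at 1.88 and Lpl at 0.88, both after LPS. Cd36 and Olr1 have no value without stimulation, and Cd36 was too low to be tested after LPS.

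Marco lies on chr1:120474538-120505024, minus strand, and encodes a class A receptor for bacteria and particles. It measured 1.01, 0.672 and 1.61 CPM in unstimulated WT cells and 1.15, 0.642 and 0.900 CPM in unstimulated KO cells, which rests on 44 to 199 counts per library. The genotypes overlapped at this low level, with a log2 difference of -0.28 (standard error 0.366, adjusted p = 0.736). Without the 3 libraries that stood apart this difference was -0.65. After LPS Marco was at 16.7, 11.5 and 20.5 CPM in WT and 68.4, 47.7 and 60.8 CPM in KO cells. Every KO library then lay above every WT library. Marco thus rose 14.3-fold in WT (log2 3.83, standard error 0.314, adjusted p = 6.96e-07) and 64.6-fold in KO cells (log2 6.01, standard error 0.335, adjusted p = 2.67e-08). Without the 3 libraries that stood apart the log2 rise was 3.31 in WT and 5.85 in KO cells. After LPS the level in KO cells was 3.68-fold that in WT cells (log2 1.88, standard error 0.211, adjusted p = 0.00301), and the call held in all 6 fits that left out a library, with log2 differences from 1.69 to 2.09. The summed level of the fibroblast markers, almost all of it Pdgfra, moved in the same direction, from 1.32 to 1.85 CPM in unstimulated WT and 1.27 to 1.53 CPM in unstimulated KO cells to 5.02 to 5.92 CPM in LPS-treated WT and 10.4 to 12.02 CPM in LPS-treated KO cells. Its part in the result was not tested.

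The interaction of genotype and LPS, which asks whether the response itself differed, was 2.18 on the log2 scale for Marco (standard error 0.424, unadjusted p = 2.72e-04, adjusted p = 0.0737). It did not pass, and neither did the other 7 genes in this edgeR fit, while 0.187% of 16535 genes passed. At an unadjusted p under 0.05 Marco alone passed, as did 8.92% of all genes, and it was the only 1 of the 8 called by DESeq2, while limma-voom called none. Unstimulated and LPS libraries of the same replicate number deviated from their group means together, as given with the methods. With that number as a block, standing for the line, the interaction of Marco was 2.15 (adjusted p = 0.00127), and 288 genes passed in place of 31. Within lines Marco rose 16.6-, 17.2- and 12.7-fold in WT and 59.4-, 74.3- and 67.5-fold in KO cells. Lines kept their order in both states, WT replicate 3 highest and replicate 2 lowest, KO replicate 1 highest and replicate 2 lowest. Lpl also kept its order in both genotypes, Msr1, Apoe and Trem2 did so in WT but not KO lines, Scarb1 in KO but not WT lines, and Plin2 and Fabp4 in neither. The other 7 interactions ranged from -0.31 for Apoe to 0.42 for Fabp4, none of them past an unadjusted p of 0.05.

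**Figure D3:**
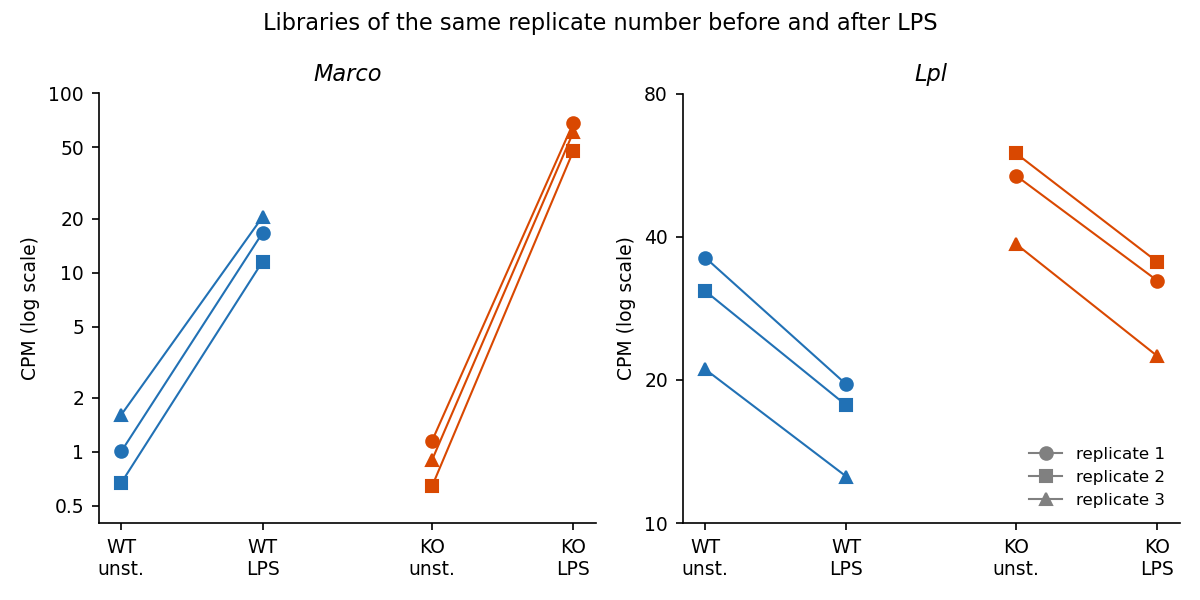
CPM on a log scale (y axis) of Marco and Lpl in unstimulated (unst.) and LPS-treated cells (x axis), with a line joining libraries of the same replicate number, WT in blue and ACAT1 KO in orange. Each Marco line rises and each Lpl line falls, and the order of the lines is the same at both ends within each genotype, which held for no other gene of the 8.

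Msr1, the founding class A scavenger receptor (chr8:39581685-39642673, minus strand), was the most abundant gene of the group. Its libraries measured 965, 1098 and 1015 CPM in unstimulated WT, 1184, 1093 and 1081 CPM in unstimulated KO, 1000, 1215 and 1165 CPM in LPS-treated WT and 1265, 1359 and 1271 CPM in LPS-treated KO cells. The genotypes overlapped without stimulation and did not overlap after LPS, but the log2 differences of 0.14 (adjusted p = 0.391) and 0.23 (adjusted p = 0.107) did not pass edgeR's test. With LPS, Msr1 rose in KO cells by a log2 change of 0.21 (standard error 0.0815, adjusted p = 0.0383) and measured a log2 change of 0.14 in WT cells (adjusted p = 0.176). The call in KO cells was lost without KO unstimulated replicate 2 (adjusted p = 0.0938) or 3 (0.114), without KO LPS replicate 1 (0.0582), 2 (0.128) or 3 (0.0620), and without the 3 libraries that stood apart (0.0790), and in WT cells a call appeared without WT LPS replicate 1 (log2 0.22, adjusted p = 0.0349). Upper-quartile normalization gave 0.065 in KO (adjusted p = 0.490) and turned the WT value to -0.074. The rise in KO cells passed with the replicate number as a block (log2 0.22, adjusted p = 0.00940). It also passed with DESeq2 (adjusted p = 0.0262) and limma-voom (adjusted p = 0.0337).

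Scarb1 (chr5:125277087-125341094, minus strand) encodes the high-density lipoprotein receptor SR-BI. It fell from 64.8, 67.0 and 59.3 CPM to 47.7, 51.6 and 48.9 CPM in WT and from 70.5, 74.5 and 69.7 CPM to 52.5, 54.6 and 50.01 CPM in KO cells, with no overlap between states in either genotype. These are decreases of 1.29-fold (log2 -0.36, standard error 0.0616, adjusted p = 2.94e-04) and 1.37-fold (log2 -0.45, standard error 0.0615, adjusted p = 4.98e-05). Unstimulated KO libraries all lay above unstimulated WT libraries, by a log2 difference of 0.18 that did not pass (standard error 0.0666, adjusted p = 0.207). After LPS the genotypes overlapped, with a log2 difference of 0.10 (adjusted p = 0.263).

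Trem2 (chr17:48346401-48354147, plus strand) was also lower after LPS. WT libraries went from 246, 253 and 295 CPM to 200, 209 and 216 CPM, and KO libraries from 324, 271 and 314 CPM to 240, 224 and 224 CPM, without overlap between states. It fell 1.27-fold in WT (log2 -0.35, standard error 0.0844, adjusted p = 0.00395) and 1.32-fold in KO cells (log2 -0.40, standard error 0.0844, adjusted p = 0.00136). The 3 unstimulated libraries that stood apart were the lowest of their state, at 246 to 271 CPM against 295 to 324 CPM in the others. Without them the decreases were larger, -0.53 in WT (adjusted p = 3.94e-04) and -0.47 in KO cells (adjusted p = 1.53e-04). Genotype differences of 0.20 without stimulation (adjusted p = 0.326) and 0.16 after LPS (adjusted p = 0.0956) did not pass, although no LPS-treated KO library fell below a WT library. The unstimulated difference was 0.12 with a term for the split and 0.11 without the 3 libraries that stood apart.

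Cd36 and Olr1 were near the limit of detection. The fatty acid translocase Cd36 (chr5:17781690-17888801, minus strand) had 12, 14 and 10 counts in LPS-treated WT and 8, 8 and 3 counts in LPS-treated KO libraries. It was removed by edgeR's filter on low counts, and without that filter its log2 difference was -0.77 (standard error 0.488, adjusted p = 0.329). Olr1 (chr6:129485244-129507165, minus strand), which encodes the receptor LOX-1, had 9, 11 and 24 counts in WT and 2, 9 and 9 counts in KO libraries, or 0.0941, 0.0991 and 0.142 CPM against 0.0210, 0.0726 and 0.0781 CPM on a scale of the 6 LPS libraries. No KO library reached a WT library, and the log2 difference of -0.94 did not pass (standard error 0.430, adjusted p = 0.172). The tables hold only genes that reach 4 counts in 5 or more of 6 libraries, and the levels of Cd36 and Olr1 without stimulation and their response to LPS were not analysed here.

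Lpl (chr8:68880491-68907448, plus strand), the secreted triglyceride lipase, was higher in ACAT1 KO cells and lower after LPS. It measured 36.2, 30.8 and 21.1 CPM in WT and 53.8, 59.9 and 38.6 CPM in KO cells without stimulation, and 19.6, 17.7 and 12.5 CPM against 32.4, 35.4 and 22.5 CPM after LPS. In both states every KO library lay above every WT library. After LPS the difference was 1.84-fold (log2 0.88, standard error 0.198, adjusted p = 0.0245). It no longer passed without WT LPS replicate 2 (log2 0.93, adjusted p = 0.0638), KO LPS replicate 1 (log2 0.83, adjusted p = 0.0778) or KO LPS replicate 2 (log2 0.75, adjusted p = 0.0850). Without stimulation the difference was of like size, 1.75-fold, and did not pass (log2 0.80, standard error 0.231, adjusted p = 0.127). It was 0.84 among the 3 libraries that stood apart (1 KO, 2 WT) and 1.11 among the other 3 (2 KO, 1 WT). With a term for that split it was 0.997 (adjusted p = 0.0207). A fit without the 3 libraries that stood apart gave 1.13. DESeq2 gave the unstimulated difference an adjusted p of 0.00265.

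LPS lowered Lpl 1.77-fold in WT (log2 -0.82, standard error 0.243, adjusted p = 0.0124) and 1.69-fold in KO cells (log2 -0.75, standard error 0.241, adjusted p = 0.0172). Within lines the ratio of LPS to unstimulated cells was 0.541, 0.575 and 0.595 in WT and 0.602, 0.591 and 0.582 in KO cells, a narrow range beside the spread of the levels. Lines kept their order, WT replicate 1 highest and replicate 3 lowest, KO replicate 2 highest and replicate 3 lowest. The WT call was lost without WT LPS replicate 3 (log2 -0.65, adjusted p = 0.0545) and without the 3 libraries that stood apart (log2 -0.38, adjusted p = 0.307), which leaves the line with the lowest Lpl as the only unstimulated WT library. The KO call was lost without KO unstimulated replicate 2 (log2 -0.62, adjusted p = 0.0601) or KO LPS replicate 3 (log2 -0.58, adjusted p = 0.0714). These fits did not pair libraries. With the replicate number as a block standing for the line, the fall of Lpl passed in both genotypes. It was -0.81 in WT (adjusted p = 1.88e-06) and -0.76 in KO cells (adjusted p = 2.12e-06).

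Plin2 (chr4:86648386-86670060, minus strand), which encodes the droplet coat protein perilipin 2, rose with LPS. Unstimulated WT libraries measured 143, 143 and 141 CPM and LPS-treated ones 288, 193 and 220 CPM, while KO libraries went from 152, 119 and 126 CPM to 285, 251 and 249 CPM. No LPS library overlapped an unstimulated library of its genotype. The rise was 1.64-fold in WT (log2 0.72, standard error 0.133, adjusted p = 5.81e-04) and 1.98-fold in KO cells (log2 0.99, standard error 0.133, adjusted p = 4.44e-05). Genotypes overlapped in both states, with log2 differences of -0.10 (adjusted p = 0.639) and 0.18 (adjusted p = 0.394). Without WT LPS replicate 1, the highest library, the latter was 0.36 and passed (adjusted p = 0.0306).

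Fabp4 (chr3:10204088-10208576, minus strand), the fatty acid carrier of adipocytes and macrophages, rose from a low level. It measured 1.25, 1.91 and 1.34 CPM in WT and 1.03, 0.653 and 0.876 CPM in KO cells without stimulation, from 60 to 166 counts per library, and 3.19, 3.80 and 2.64 CPM against 2.85, 2.39 and 2.12 CPM after LPS. The states did not overlap within either genotype. The rise was 2.15-fold in WT (log2 1.10, standard error 0.224, adjusted p = 0.00116) and 2.87-fold in KO cells (log2 1.52, standard error 0.227, adjusted p = 1.02e-04). Every unstimulated KO library lay below every WT library, by a log2 difference of -0.80 that did not pass (standard error 0.255, adjusted p = 0.157). Without the 3 libraries that stood apart it was -0.50 (adjusted p = 0.562), and it was -1.24 among those 3 libraries and -0.50 among the other 3. After LPS the libraries of the genotypes overlapped and the difference was -0.37 (adjusted p = 0.177). No adipocyte marker was listed in any library.

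Apoe (chr7:19696109-19699188, minus strand), the apolipoprotein of cholesterol efflux, depended on the libraries used. In unstimulated cells it measured 9.60, 9.48 and 14.0 CPM in WT and 12.7, 8.09 and 12.3 CPM in KO lines. The 3 libraries that stood apart held 8.09 to 9.60 CPM and the other 3 held 12.3 to 14.0 CPM. The lower and higher values thus followed that split, whose cause was not tested. The genotypes overlapped (log2 difference 0.0035, adjusted p = 0.997). With a term for the split the difference was -0.19 (adjusted p = 0.226). After LPS it was 10.4, 9.53 and 10.5 CPM in WT and 8.17, 7.59 and 8.60 CPM in KO cells. KO libraries were all below WT libraries then, by a log2 difference of -0.30 that did not pass (standard error 0.0860, adjusted p = 0.0522 from edgeR, 0.0214 from DESeq2).

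With LPS, Apoe changed by -0.12 on the log2 scale in WT (standard error 0.179, adjusted p = 0.584) and by -0.44 in KO cells (standard error 0.179, adjusted p = 0.0509), with overlap between states in both. With the replicate number as a block standing for the line the KO value was -0.41 (adjusted p = 0.020). Without the 3 libraries that stood apart the change was -0.50 in WT (adjusted p = 0.00384) and -0.61 in KO cells (adjusted p = 2.37e-04). DESeq2 gave the KO change an adjusted p of 0.0294, and with upper-quartile normalization it was -0.58 (adjusted p = 0.0109). It also passed without WT unstimulated replicate 2 (log2 -0.44, adjusted p = 0.0491) or replicate 3 (log2 -0.44, adjusted p = 0.0220), and without KO unstimulated replicate 2 (log2 -0.62, adjusted p = 0.00444). The WT value was 0.089 without WT unstimulated replicate 3.

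**Figure D4:**
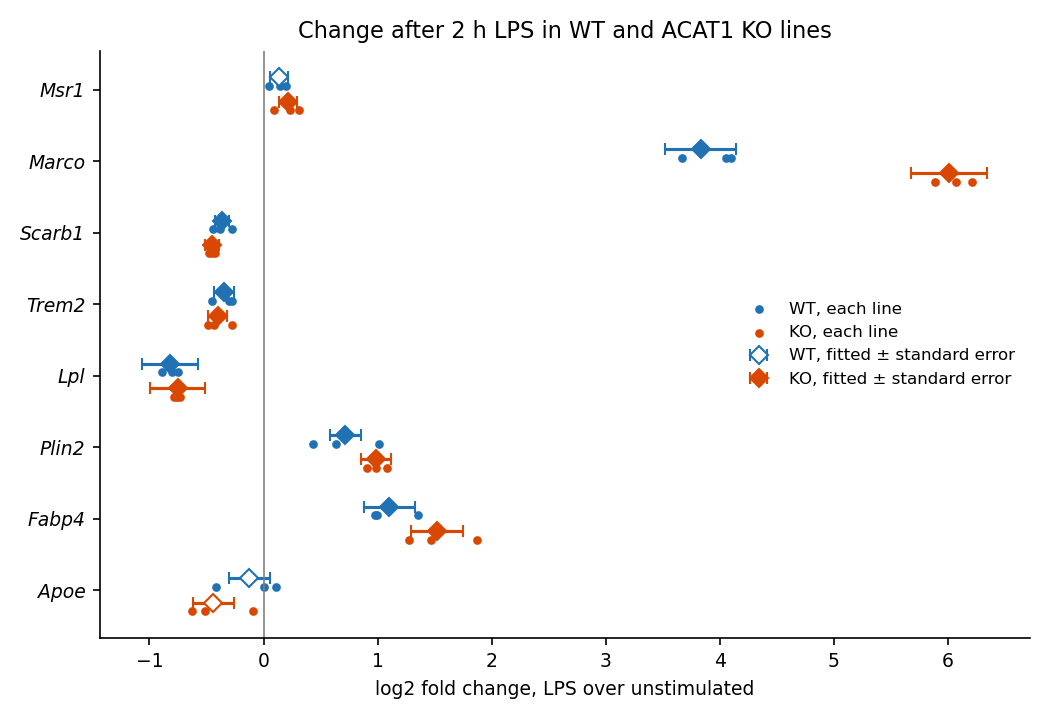
Log2 fold change of LPS-treated over unstimulated cells (x axis) for the 8 genes in both tables (y axis). Diamonds are fitted values with bars for the standard error, filled for an adjusted p under 0.05, and small points are the ratios within a replicate number. Marco stands at 3.83 in WT and 6.01 in KO cells, and the other 7 genes lie between -0.82 and 1.52.

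Libraries of the states did not overlap for 6 of 8 genes in WT (3 higher, 3 lower) and 7 of 8 in KO cells (4 higher, 3 lower), where 61% and 67.8% of all genes did not overlap.

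Further genes of the same pathways were read from 6 lists with 117 genes, of which 86 were tested in each genotype comparison and 84 in each LPS comparison. Without stimulation 3 of 86 passed, all lower in KO cells, beside 1.17% of all genes that were lower. After LPS 19 passed, 8 higher and 11 lower, beside 5.93% and 9.12% of all genes. LPS changed 50 of 84 in WT (20 higher, 30 lower) and 60 of 84 in KO cells (26 higher, 34 lower), or 59.5% and 71.4%, beside 57.4% and 60.7% of all genes. None of 84 passed for the interaction in edgeR's fit, where 8 had an unadjusted p under 0.05, beside 8.92% of all genes. DESeq2 called 2 for the interaction and limma-voom none, the replicate block called 3, the block with a term for the libraries that stood apart 5, and the fit without WT LPS replicate 3 called 1. Between genotypes without stimulation, leaving out WT unstimulated replicate 3 raised the 3 calls to 9, and leaving out any of the other 5 unstimulated libraries left 0. In that same comparison DESeq2 called 18 and a single fit of all 12 libraries 15. A term for the libraries that stood apart gave 7 calls there and a minimum of 10 counts in every library 5. After LPS the 19 calls became 8, 7, 5 and 9 without WT LPS replicate 2 and KO LPS replicates 1, 2 and 3.

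**Figure D5:**
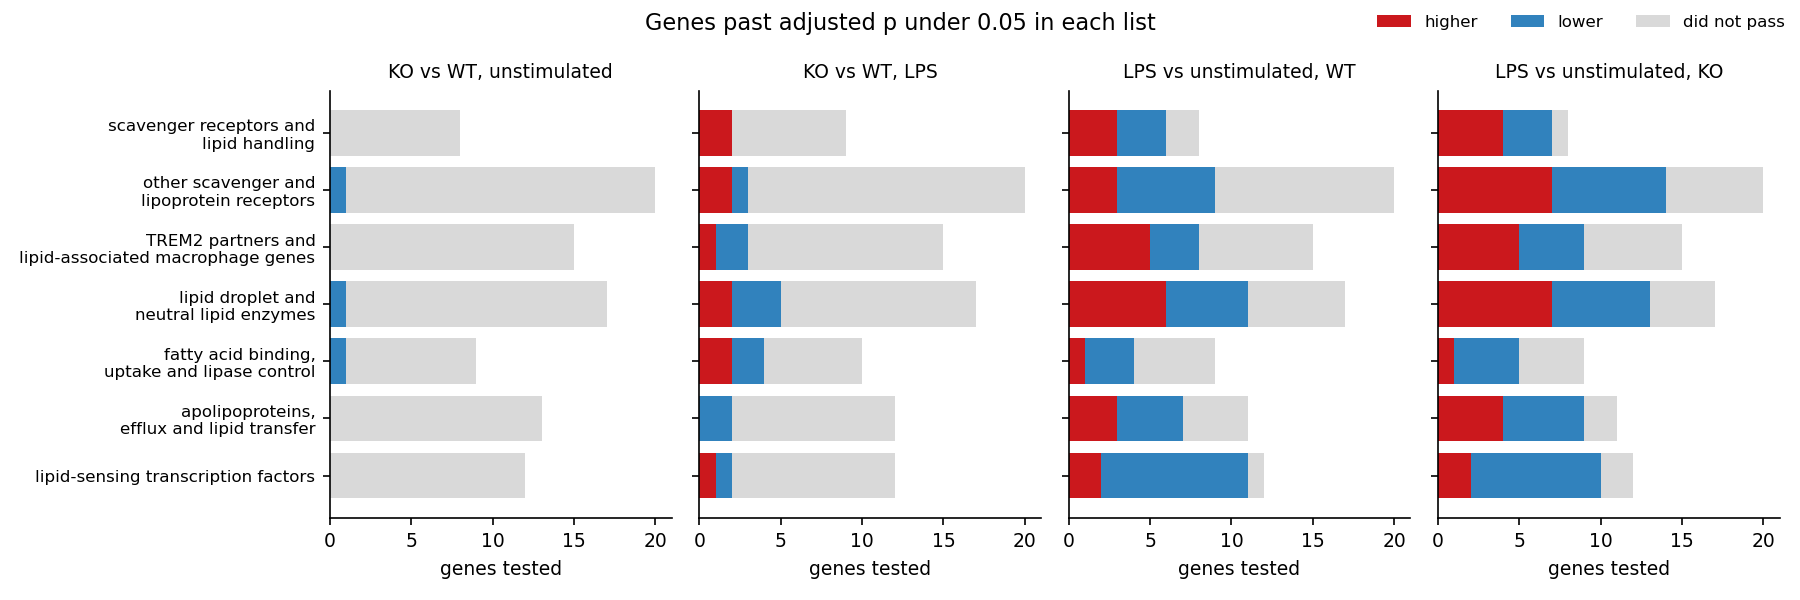
Number of genes tested (x axis) in each list (y axis) that were higher, lower or did not pass at an adjusted p under 0.05, in a panel for each of 4 comparisons. The list of lipid-sensing transcription factors has 9 lower of 12 in WT and 8 lower of 12 in KO cells after LPS. Of all genes 28% and 31.2% were lower.

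Lipid-sensing transcription factors, the nuclear receptors and partners that control several of the genes above, mostly fell with LPS. In WT cells 9 of 12 fell and 2 rose, with a median log2 change of -0.87, and in KO cells 8 fell and 2 rose, with a median of -0.78, beside -0.018 and -0.026 over all genes. Calls in either direction made up 91.7% and 83.3% of the list, beside 57.4% and 60.7% of all genes. Rxra, the shared partner of PPAR and LXR receptors, fell 2.59-fold in WT and 2.74-fold in KO cells. Nr1h3, which encodes LXR alpha, rose 2.29-fold in WT (adjusted p = 1.83e-05) and 2.47-fold in KO cells. Tfeb, the regulator of lysosomal genes, fell 3.54-fold in WT and 6.70-fold in KO cells, and after LPS it was lower in KO cells, at 2.22 to 2.69 CPM against 4.04 to 5.999 CPM (log2 -0.96, adjusted p = 0.00958).

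Among enzymes of lipid droplets and neutral lipid, LPS raised 6 and lowered 5 of 17 in WT and raised 7 and lowered 6 in KO cells. These calls are 64.7% and 76.5% of the list, beside 57.4% and 60.7% of all genes. The acyl-CoA synthetase Acsl1 rose 5.77-fold in WT and 4.87-fold in KO cells, and the droplet-forming Fitm2 rose 2.44- and 2.10-fold. The synthetase Acsl3 fell 2.67- and 2.80-fold, and the cholesterol acyltransferases Soat1, at 1.38- and 1.51-fold, and Soat2, at 2.60- and 4.12-fold, fell as well. Between genotypes after LPS, the phosphatidate phosphatase Lpin2 was lower in KO cells, at 39.98 to 49.1 CPM against 65.4 to 79.3 CPM (log2 -0.68, adjusted p = 0.00589), and the seipin gene Bscl2 higher (log2 0.44, adjusted p = 0.0121), each in all 6 fits that left out a library. Hilpda, an inhibitor of triglyceride breakdown, was lower in unstimulated KO cells (log2 -0.71, adjusted p = 0.0403), a call that held only without WT replicate 3 among the 6 fits that left out a library.

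In the list of fatty acid binding, uptake and lipase control, the Lpl inhibitor Angptl4 fell from 10.8 to 11.2 CPM to 0.780 to 1.61 CPM in WT (log2 -3.38, adjusted p = 5.35e-07) and 16.1-fold in KO cells, so it fell together with Lpl. The list had 1 higher and 3 lower of 9 in WT and 1 higher and 4 lower in KO cells. Calls made up 44.4% and 55.6% of it, beside 57.4% and 60.7% of all genes. Its riser in both genotypes was the transporter Slc27a1 (1.57- and 1.44-fold). Fabp5, a paralog of Fabp4, was lower in KO than in WT cells, at 29.4 to 37.8 CPM against 56.0 to 66.0 CPM without stimulation (log2 -0.79, adjusted p = 0.0368) and at 28.5 to 31.1 CPM against 39.9 to 54.6 CPM after LPS (log2 -0.70, adjusted p = 0.00834). The latter held in all 6 fits with a library left out and the former in 1 of 6, that without WT replicate 3, the other 5 giving adjusted p of 0.0692 to 0.135.

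Other scavenger and lipoprotein receptors gave 3 higher and 6 lower of 20 with LPS in WT and 7 higher and 7 lower in KO cells. That is 45% and 70% of the list, beside 57.4% and 60.7% of all genes. Cxcl16, a transmembrane chemokine that binds oxidized lipoprotein, rose 3.23-fold in WT and 3.004-fold in KO cells, and Scarf2 fell 1.87- and 1.83-fold. Stab2, a scavenger receptor for hyaluronan, was higher in KO cells after LPS from a low level, at 0.524 to 0.616 CPM against 0.0586 to 0.225 CPM (log2 1.90, adjusted p = 0.0128), a call lost without KO LPS replicate 2 (adjusted p = 0.0530). In unstimulated cells the apoptotic cell receptor Axl was at 0.123 to 0.239 CPM in KO against 0.623 to 0.849 CPM in WT cells (log2 -1.96, adjusted p = 0.0394), a call that 5 of the 6 such fits lost, with adjusted p of 0.0871 to 0.152.

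TREM2 partners and genes of lipid-associated macrophages had 5 higher and 3 lower of 15 with LPS in WT and 5 higher and 4 lower in KO cells. That is 53.3% and 60% of the list, beside 57.4% and 60.7% of all genes. The adaptor Tyrobp fell with Trem2, by 1.21-fold in WT (adjusted p = 0.0113) and 1.37-fold in KO cells (adjusted p = 4.70e-04), whereas Syk, the kinase that binds it, rose 2.86- and 2.65-fold. The tetraspanin Cd9 rose 1.54- and 1.41-fold. Apolipoproteins, efflux and lipid transfer genes had 3 higher and 4 lower of 11 in WT and 4 higher and 5 lower in KO cells, or 63.6% and 81.8% of the list. Cyp27a1, a sterol hydroxylase, fell 1.89- and 1.87-fold, and Nceh1, which hydrolyses cholesteryl esters, fell 1.34- and 1.40-fold. Npc2, the lysosomal cholesterol carrier, rose 1.32- and 1.37-fold, and after LPS it was lower in KO cells, at 423 to 462 CPM against 564 to 618 CPM (log2 -0.39, adjusted p = 0.00737), in all 6 fits with a library left out.

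The genes whose profiles came closest were found among 11961 genes with a mean of at least 1 CPM, by the root mean square difference of centred log2 CPM over 12 libraries. For Marco these were Gbp3 (0.608) and Ifih1 (0.625), against a root mean square of 2.60 for the profile of Marco itself. Lpl was closest to Klra2 (0.294) and Pcbp4 (0.306), with 0.640 for its own profile, and Fabp4 to Me1 (0.202) and Apex2 (0.206), with 0.761. Plin2 was closest to Polr1c (0.104) and Atp6v0a1 (0.115), with 0.454. Profiles of the other 4 were shallow, at 0.147 to 0.265, and their nearest genes were Lap3 (0.0648) and Alg3 (0.0706) for Msr1, Kif16b (0.0596) and Orc3 (0.0611) for Scarb1, Cmc1 (0.0544) and Rab24 (0.0574) for Trem2, and Gm14303 (0.118) and Glrx2 (0.128) for Apoe.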

How the data were processed

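The 12 RNA-seq libraries form 4 groups of 3, WT or ACAT1 KO J774A.1 cells with no treatment or with 100 ng/ml LPS for 2 h, and groups and replicate numbers are from the labels. Per the paper and the submitters' processing notes, reads were trimmed with Trimmomatic 0.33, aligned to GRCm38 with HISAT2 and quantified with StringTie. The authors deposited raw counts per gene, without normalization, in 2 tables that are filtered separately. The step that gave whole counts and its use of strand are not given in the sources used here. The deposited tables also hold log2 values per library (12 columns), a log2 fold change, moderated scores and p-values of the authors' own comparison, and none of these were used. Repeated entries (59 and 57) were removed.

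Counts were fitted with edgeR 4.0.16 in R 4.3.3 (filterByExpr, TMM, glmQLFit, glmQLFTest, two-sided), genotypes within the 6 libraries of a state and LPS and the interaction over 12 libraries and genes of both tables. Benjamini-Hochberg adjustment was over all genes tested and an adjusted p under 0.05 was called. CPM values use TMM-scaled totals of the 12 libraries together, or of the 6 LPS libraries for Cd36 and Olr1. Totals were 56948593 to 167280149 counts, so counting error matters mainly for the lowest genes (Cd36, Olr1, and Marco and Fabp4 without stimulation). Positions and lengths are from GENCODE on GRCm38, and 17521 and 17849 genes matched it. No library was a copy of another of its group (chi-square per degree of freedom of 31.7 to 269 between libraries of a group). Deviations from group means of same-number unstimulated and LPS libraries correlated from 0.139 to 0.454 over 11961 genes of at least 1 CPM. Different numbers gave -0.344 to 0.0976 over these genes. Over all genes tested the same numbers gave 0.0914 to 0.307. A pairing was inferred from these data and used for the block fits and for ratios and orders within lines. LPS and interaction tests took the libraries as unpaired unless a block is named. Genes are not independent replicates.

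The genes and lists were chosen with earlier results of these data known. Named are all 10 genes, Acat1, at most 4 genes per list, comparison and direction with the smallest p among those called (the text gives examples), and the 2 closest profiles. Alternatives were DESeq2 1.42.0, voom of limma 3.58.1, upper-quartile or relative log expression (RLE) scaling, no filter, at least 10 counts in every library, all 12 libraries in a single fit, replicate blocks, a term for the 3 libraries that stood apart, other gene lengths and each library left out. Leaving out those 3 libraries and using the longest protein-coding transcript were chosen after seeing the data. A threshold of unadjusted p under 0.05 was a further alternative. The fits were tested on simulated counts with a single spread for all genes and without the split or differences between lines. That spread was below that of the unstimulated and 12-library fits. The test does not show how these fits perform at their own spread.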

Additional observations from a re-analysis of the deposited data

Results flagged for a closer look

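Marco differed between genotypes in its response to LPS once libraries of the same replicate number were treated as pairs, with that number as a block. The labels do not give this pairing, which was inferred from these same data. The interaction was 2.15 on the log2 scale with that block (edgeR's quasi-likelihood test, adjusted p = 0.00127), 2.25 with the block and a term for the 3 unstimulated libraries that stood apart (adjusted p = 1.97e-04), and 2.18 without either (adjusted p = 0.0737). DESeq2 gave 2.17 without a block (adjusted p = 0.00187) and limma-voom an adjusted p of 0.152. Without the 3 libraries it was 2.54 (adjusted p = 0.117). The increase was larger in each of the 3 KO lines, at 5.89, 6.22 and 6.08 on the log2 scale, than in each of the 3 WT lines, at 4.05, 4.10 and 3.67. Unstimulated levels behind these ratios rest on 44 to 199 counts per library.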

How the results depend on the processing

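Among values of single genes under the alternatives, 731 kept their direction and side of the threshold, 28 newly passed, 14 no longer passed and 23 changed sign, and the cause was not tested. A threshold of unadjusted p under 0.05 on the same fit counts as an alternative here and gave part of the 28. The count of genes called between genotypes without stimulation went from 0 to 3 at an unadjusted p under 0.05 and to 1 (Lpl) with DESeq2, with the replicate number as a block and with a term for the 3 libraries that stood apart, and was 0 without each library. After LPS the count of 2 became 5 at an unadjusted p and ranged from 1 to 3 without each library. The interaction count of 0 became 1 (Marco) at an unadjusted p, with DESeq2, with the replicate block (line) and with that block and the term, and stayed 0 without each library. LPS counts ranged from 5 to 7 in WT and from 5 to 8 in KO cells without each library. WT and KO libraries of the same number share only a number (correlations of their deviations from -0.412 to 0.745 without stimulation and -0.108 to 0.173 after LPS), and the replicate block took the calls over all genes from 314 to 151 and from 2481 to 2230. Over all genes the unstimulated calls became 1721 with DESeq2, 664 with the term, 1353 in a single fit of 12 libraries, 475 with at least 10 counts in every library, 66 without the 3 libraries and 7 to 522 without each library, and the interaction calls went from 31 to 334 with DESeq2, 288 with the block and 457 with block and term, but to 11 with voom, 2 without the 3 libraries and 2 to 41 without each library. The calls after LPS went from 2481 to between 867 and 2245 without each library.

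Sign changed only in values that did not pass. Apoe between genotypes without stimulation was -0.019 with upper-quartile normalization, -0.016 with voom, -0.00092 with at least 10 counts, -0.19 with the term, -0.0048 in a single fit and -0.18 without the 3 libraries. In the response in WT cells Msr1 was -0.074 with upper-quartile normalization. In the interaction Lpl was -0.23 without the 3 libraries, and Trem2 0.0042 with upper-quartile normalization, 0.0023 with block and term and 0.063 without the 3 libraries. Leaving out each library gave ranges that span 0, from -0.53 to 0.11 for Marco and -0.12 to 0.22 for Apoe between genotypes without stimulation, -0.24 to 0.089 for Apoe in the WT response, and -0.000522 to 0.157 for Msr1, -0.10 to 0.26 for Lpl and -0.14 to 0.030 for Trem2 in the interaction. Cd36 and Olr1 were limited by depth, at 2 to 24 counts.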
